A study of Mus musculus with 6 samples.

Results

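The cell cycle machinery was described here through 37 listed genes, measured cell by cell in lymph nodes of pregnant mice. All 37 were among the 14125 genes of the deposited count matrix, and no listed gene was left out. Cells were ranked by how many of the listed genes had at least 1 UMI, a unique molecular identifier that stands for 1 captured RNA molecule. By the rule that defines them, 191 of 7300 cells (2.62%) had UMIs of 5 or more listed genes.

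The cells came from 7 dams mated to BALB/c males, of which 4 were Aire-DTR (mice 4, 7, 8 and 36) and 3 were WT (mice 1, 6 and 97). In Aire-DTR mice diphtheria toxin kills cells that express Aire, the factor with which thymic epithelium and some peripheral cells display tissue antigens. Dams of both genotypes received the toxin over the first 9 days of gestation and were analysed at embryonic day 9.5. From each dam a uterine-draining lymph node (udLN) and a brachial lymph node (brLN), which does not drain the uterus, were taken, which gives 14 samples of 1 mouse and 1 node. In the deposited labels, Aire-DTR mouse 4 has the phenotype resorbed, Aire-DTR mice 7, 8 and 36 have IUGR and no WT mouse has either, so genotype and outcome cannot be told apart. The labels describe the sort as CD45+ CD3+ and the series design as CD45+, and B is the deposited type of 2267 of the 7300 cells. Mice were tagged and loaded together in 3 pools, each with mice of both genotypes.

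Before any result, 1 property of the deposited matrix had to be dealt with. In 1 well of pool LN, which held mice 1, 4 and 7, each of 2127 cells was present as a pair of entries with the same barcode, the same labels and identical counts at every gene. Each was counted once, which leaves 7300 of 9427 cells and 22833288 of 29210327 UMIs. With the cells as deposited, 243 of 9427 cells (2.58%) had UMIs of 5 or more listed genes. Of 7089 different barcodes, 208 occurred in more than 1 well. The 14 samples held 48 to 1060 cells each, with median UMIs per cell from 2712 to 3215.5.

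A cell that divides copies its DNA in S phase and separates the copies in mitosis. Genes of the replication machinery are under control of E2F factors and are switched on as a cell leaves rest. Most mitotic genes, in contrast, are kept off until G2 by complexes that bind cell cycle homology regions (CHR) near their start sites. CCAAT boxes are also common in promoters of cell cycle genes. In lymph nodes division is known from T cells that have met antigen and from germinal centre B cells, while naive lymphocytes rest.

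The promoters of the listed genes were searched for these elements and are given for 6 genes that stand for the abundant and the rare members described below. RefSeq windows of GRCm38.p6 were matched for 30 of the 37 genes (32 windows, since 2 genes had 2). Capitals mark the motifs searched on both strands within the 250 bases before the start site: CCAAT, the CHR letters TTTGAA and TTCGAA, and the E2F letters TTTGGCGC, TTTCGCGC and TTTCCCGC. The last 120 bases before the start site are printed, at chr1:128359706-128359825 for Mcm6 (minus strand), chr1:20820313-20820432 for Mcm3 (minus), chr8:57511723-57511842 for Hmgb2 (plus), chr7:135716380-135716499 for Mki67 (minus), chr11:99024190-99024309 for Top2a (minus) and chr9:70421555-70421674 for Ccnb2 (minus).
Mcm6: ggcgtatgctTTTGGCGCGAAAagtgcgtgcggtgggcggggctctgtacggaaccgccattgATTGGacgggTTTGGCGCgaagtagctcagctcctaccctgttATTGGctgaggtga
Mcm3: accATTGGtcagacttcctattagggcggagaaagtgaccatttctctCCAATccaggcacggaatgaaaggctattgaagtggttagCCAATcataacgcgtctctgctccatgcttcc
Hmgb2: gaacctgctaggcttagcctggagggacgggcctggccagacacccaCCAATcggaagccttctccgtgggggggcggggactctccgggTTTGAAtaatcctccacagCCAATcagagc
Mki67: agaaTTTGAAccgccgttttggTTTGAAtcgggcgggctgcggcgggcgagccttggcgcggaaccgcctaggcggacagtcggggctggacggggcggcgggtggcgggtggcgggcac
Top2a: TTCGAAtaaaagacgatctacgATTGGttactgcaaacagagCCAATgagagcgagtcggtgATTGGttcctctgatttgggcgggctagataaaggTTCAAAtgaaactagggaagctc
Ccnb2: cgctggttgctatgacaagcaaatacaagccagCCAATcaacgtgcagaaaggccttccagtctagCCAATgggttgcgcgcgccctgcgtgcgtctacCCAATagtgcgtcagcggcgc
The 2 E2F matches at the 5′ end of the Mcm6 stretch overlap. CCAAT was found in 84.4% of the 32 windows of listed genes and in 33.8% of all 32851 windows of the same length. It was found in 88.9% of the windows of mitotic genes and in 78.6% of those of the other listed genes. A CHR motif was found in 50.0% of the 18 windows of mitotic genes, in 28.6% of the 14 windows of the other listed genes and in 17.1% of all windows. One of the E2F motifs was found in 12.5% of the listed windows and in 1.53% of all windows. A match of letters is a description and not a bound site.

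Together the listed genes gave 12651 UMIs, 554 counts per 1000000 UMIs (CPM). Of these, 12022 UMIs came from 17 genes (those of replication and nucleotide supply with Hmgb2, Nasp, Stmn1 and Ccne2), and 629 (4.97%) from the other 20, which act in G2 and mitosis and include Mki67 and Top2a. Since the library kit reads the 3′ end of each molecule, UMIs are not scaled by gene length.

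**Figure D1:**
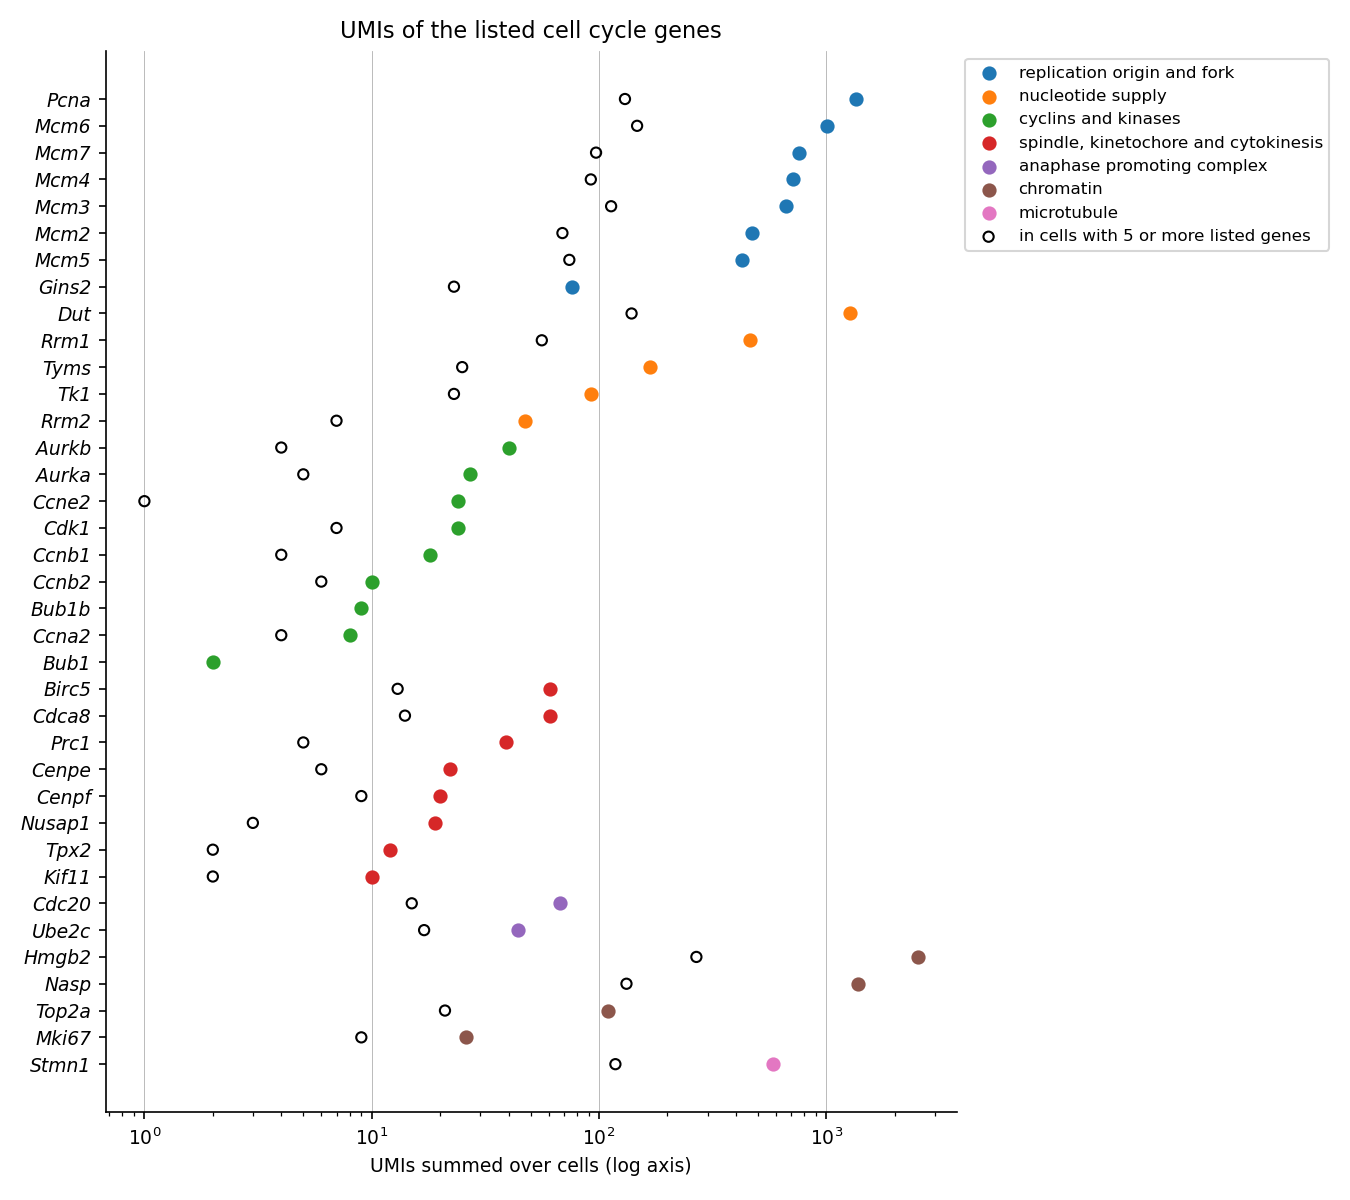
UMIs of each listed gene summed over all 7300 cells (filled points, coloured by role) and over the 191 cells with UMIs of 5 or more listed genes (open circles, left out where there were none), on a log axis. Hmgb2 (2535 UMIs), Nasp (1384) and Pcna (1344) lie far to the right of Mki67 (26) and Bub1 (2).

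Among replication genes, the 6 subunits of the MCM helicase that opens DNA at origins gave 4041 UMIs, or 31.9% of all listed UMIs. Mcm6 was the highest of them with 1010 UMIs in 864 cells (11.8%), and Mcm5 the lowest with 424 UMIs in 396 cells (5.42%). Mcm7 gave 756, Mcm4 714, Mcm3 666 and Mcm2 471 UMIs. Pcna, the sliding clamp of the polymerases, gave 1344 UMIs in 1187 cells (16.3%). Gins2, a subunit of the active helicase that is loaded only when origins fire, gave 76 UMIs in 72 cells (0.986%). The licensing helicase was thus seen in many more cells than the firing subunit.

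Genes of nucleotide supply showed the same uneven pattern. Dut, which removes dUTP, gave 1269 UMIs in 1118 cells (15.3%). The large subunit of ribonucleotide reductase, Rrm1, gave 461 UMIs, whereas the small subunit Rrm2, whose level is known to be limited to S phase, gave 47 UMIs in 43 cells (0.589%). Thymidylate synthase Tyms gave 168 UMIs and thymidine kinase Tk1 gave 92.

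The chromatin genes ranged widely. Hmgb2, a DNA-bending protein that resting lymphocytes also contain, gave 2535 UMIs in 1890 cells (25.9%), the most of any listed gene. Nasp, a histone H1 and H3 chaperone, gave 1384 UMIs. Top2a, the topoisomerase that untangles sister chromatids, gave 110 UMIs in 95 cells (1.30%). Mki67, the proliferation marker Ki-67 that coats mitotic chromosomes, gave 26 UMIs in 25 cells (0.342%). Stmn1, which destabilises microtubules, gave 581 UMIs in 466 cells (6.38%).

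All other mitotic genes were rare. The cyclins and kinases of the list gave 162 UMIs in all, from Aurkb (40) and Aurka (27), the Aurora kinases, through Cdk1 (24) and the cyclins Ccnb1 (18), Ccnb2 (10) and Ccna2 (8), to the spindle checkpoint genes Bub1b (9) and Bub1 (2). The G1/S cyclin Ccne2 gave 24. Spindle, kinetochore and cytokinesis genes gave 244 UMIs, from 61 each for Birc5 and Cdca8, which belong to the chromosomal passenger complex, and 39 for Prc1, which bundles the midzone, down to 12 for Tpx2 and 10 for the motor Kif11. Cenpe, Cenpf and Nusap1 gave 22, 20 and 19. The anaphase-promoting complex activator Cdc20 gave 67 UMIs and its E2 enzyme Ube2c 44.

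Nearly all cells carried few of these genes. No listed gene had a UMI in 1804 cells (24.7%), and 2442 cells had UMIs of 1. The threshold was crossed narrowly by most of the 191 cells, since 111 of them had exactly 5 listed genes, and 333 cells just below it had 4. The median UMIs per cell were 4286 at 5 listed genes and 4086 at 4. Only 24 cells reached 8 or more, with a median of 6978.5 UMIs.

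**Figure D2:**
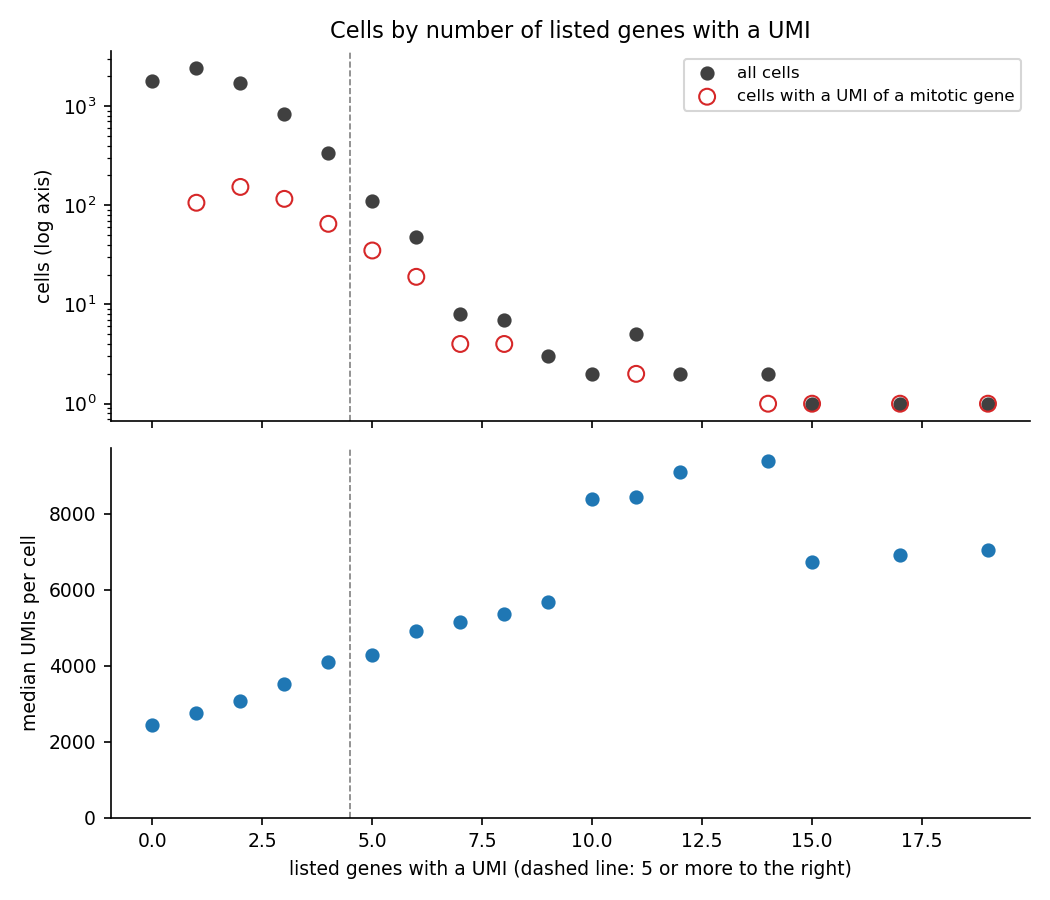
Cells by the number of listed genes with a UMI. Top, all cells (filled points) and cells that also had a UMI of 1 of the 20 mitotic genes (open red circles), on a log axis. Bottom, median UMIs per cell, which went from 2440 at no listed gene to 4286 at 5 and 7039 in the 1 cell with 19. The dashed line marks the threshold of 5.

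Measured against their name, most of these cells had no UMI of a mitotic gene. Of the 191 cells with UMIs of 5 or more listed genes, 68 (35.6%) had a UMI of any mitotic gene, 16 of at least 2, 4 of at least 3, and 9 had a UMI of Mki67. Among the other 7109 cells 440 (6.19%) had a UMI of a mitotic gene and 16 had one of Mki67. The 191 are therefore called by their rule and not dividing cells.

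Depth moved with the count. The median UMIs per cell were 4640 in the 191 cells and 2872 in the others. When all cells were ranked by UMIs and cut into 4 equal groups, 0.384% of the shallowest group (7 of 1825 cells) and 7.67% of the deepest (140 of 1825) had 5 or more listed genes. Cells with at least 1500 UMIs were then thinned to that depth, and shallower cells were left out. After this thinning the share in a sample was at most 0.538%. The share with a UMI of a mitotic gene was 4.88% in the shallowest and 9.92% in the deepest group.

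One cell stood alone. It came from the udLN of Aire-DTR mouse 7, carried the deposited subset label Act. Treg and had 3 UMIs of Foxp3, the factor that defines regulatory T cells. It had UMIs of 19 listed genes, 13 of them mitotic, while no other cell had more than 3 mitotic genes. Of its 7039 UMIs, 73 were of listed genes: Hmgb2 17, Birc5 9, Cenpf 6, Cdc20 5, Ube2c 5, and 4 each of the cyclins Ccna2 and Ccnb2, of Cenpe and of Stmn1. It had 1 UMI each of Mcm3 and Mcm5 and none of Mki67 or Top2a. This cell held 47 of all 629 mitotic UMIs (4 of the 8 Ccna2 UMIs and 4 of the 10 Ccnb2 UMIs). Results on mitotic genes in activated Treg cells or in mouse 7 are given with and without it.

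The next highest cells were rich in replication genes instead. A second cell labelled Act. Treg of mouse 7, from the brLN, had 17 listed genes, of which 14 were not mitotic, with all 6 MCM genes among them. It had no UMI of Foxp3 among its 6918 UMIs. A cell labelled Th17 from WT mouse 97 had 15 listed genes together with 56 UMIs of Gzmb and 15 of Cd8a, genes of cytotoxic CD8 T cells that go against its label. Of the 24 cells with 8 or more listed genes, 10 (41.7%) had a UMI of any mitotic gene and 3 had UMIs of 3 or more.

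Cells labelled B need a caution. Of 2267, 28 had UMIs of Cd3 genes and none of Cd79a or Cd79b, the signalling chains of the B cell receptor. Cd8a UMIs were present in 20 of these 28, and their median depth was 8400.5 UMIs. Of the 28, 15 (53.6%, 95% Wilson interval 35.8% to 70.5%) had 5 or more listed genes, as did 21 of the 2056 cells with Cd79 and no Cd3 UMIs (1.02%, 0.669% to 1.56%). The median depth of those 2056 cells was 2210.5 UMIs, so depth differed along with the share. Listed genes gave 1207 CPM in the 28 cells and 504 CPM in the 2056. The 28 cells made up 7 of the 8 B-labelled cells with 8 or more listed genes. These 28 cells came from all 7 mice and all 6 wells.

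Levels of the listed genes by deposited cell type are a description, because the types were made from the same cells. Summed over all cells, memory CD4 T cells (CD4+ Mem T) stood highest of the large types with 817 CPM of listed genes, and the 7 mice ranged from 673 to 1017. Naive CD4 T cells had 559 CPM (483 to 641), B cells 535 (494 to 577), Treg cells 545 (430 to 619), naive CD8 T cells 492 (454 to 514) and memory CD8 T cells 489 (421 to 562). The range of memory CD4 T cells lay above those of all 5 other types named here. The other 5 overlapped with at least 1 neighbour in this order. NK cells (54 cells) had 914 CPM, gamma delta T cells (73 cells) 660 and Myeloid-labelled cells (73 cells) 623.

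Memory CD4 and memory CD8 T cells differed in this respect. Of 20 listed genes with at least 20 UMIs in memory and naive CD4 T cells together, 18 were higher in memory, with a median ratio of 1.58. Without the single cell described above, which is labelled CD4+ Mem T, it was again 18 of 20, with a median ratio of 1.41. Of 16 such genes in CD8 T cells 7 were higher in memory, with a median ratio of 0.954. Mitotic genes summed to 81.5 CPM in memory CD4 T cells (156 UMIs), and to 57.1 CPM (109 UMIs) without that cell. They gave 18.9 CPM in naive CD4, 18.7 in naive CD8 and 9.68 in memory CD8 T cells. A UMI of a mitotic gene was seen in 15.0% of memory CD4 T cells (median 3268 UMIs per cell) and in 5.28% of naive CD4 T cells (2903 UMIs), the resting cells that serve as the background here.

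**Figure D3:**
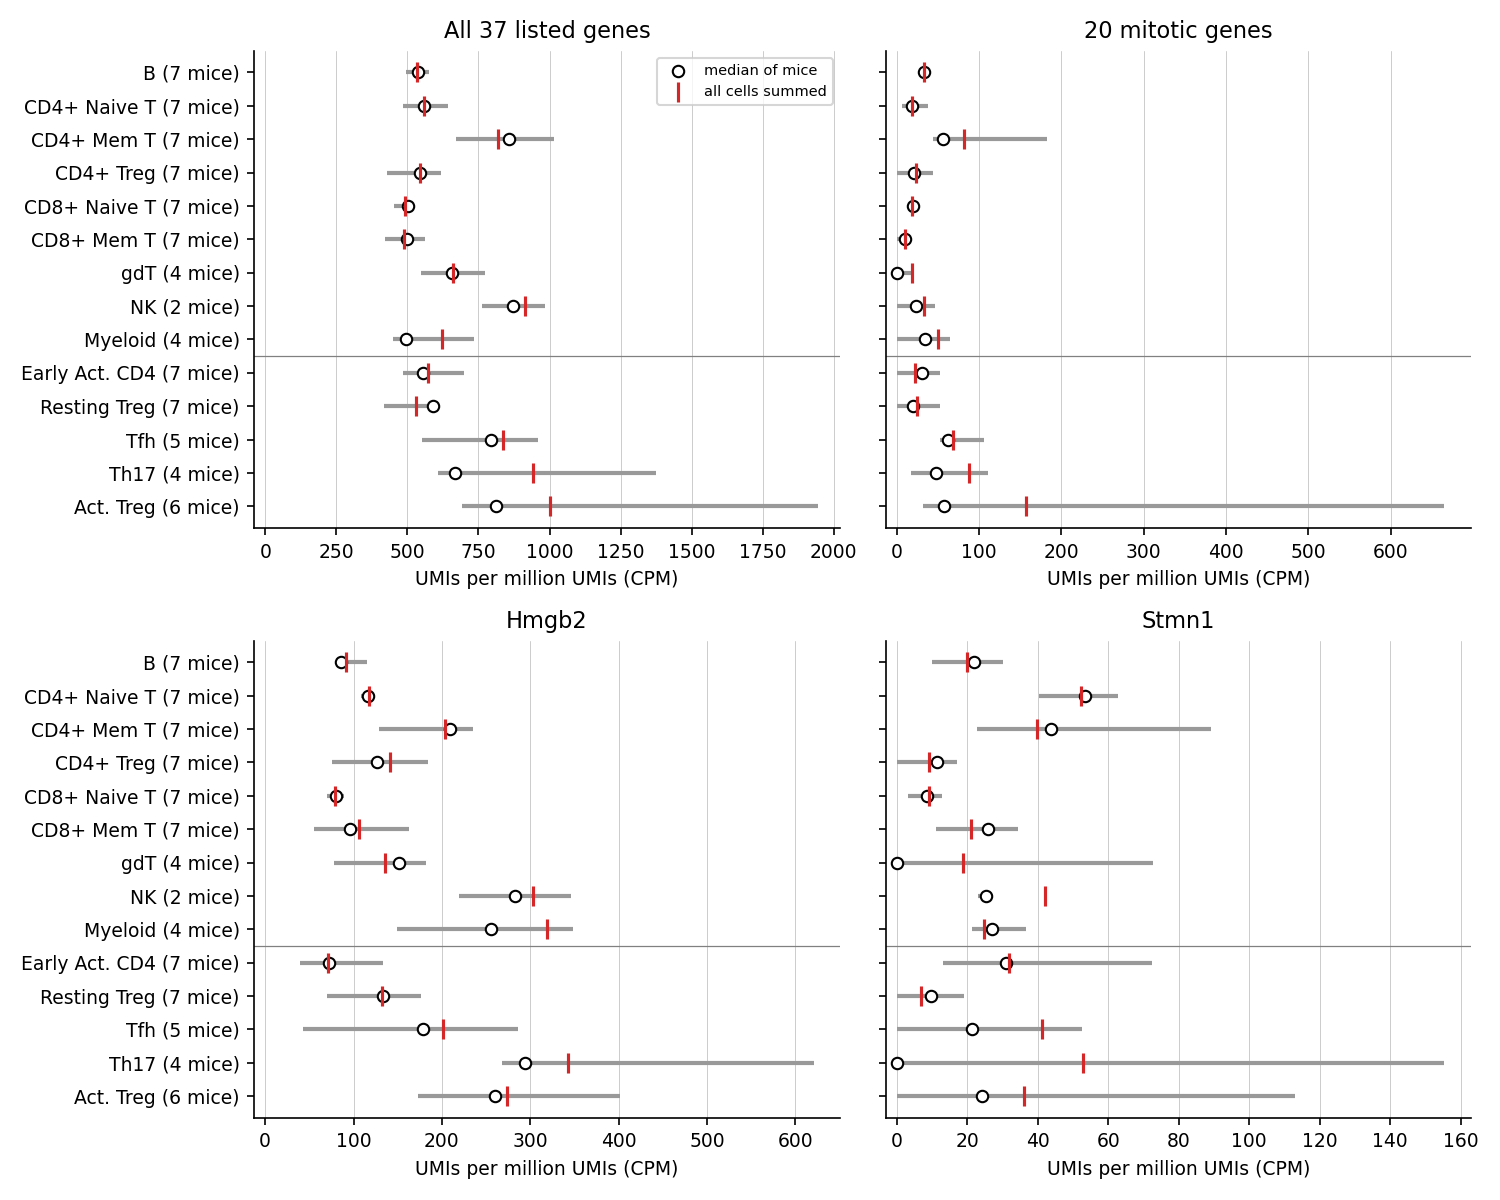
Level of all listed genes, of the 20 mitotic genes, of Hmgb2 and of Stmn1 in CPM, for the 9 deposited cell types (above the line) and 5 CD4 subsets (below it). Grey bars span the mice with at least 10 cells of a type, open circles mark their median and red ticks the sum over all cells. The bar of mitotic genes in Act. Treg cells reaches 665 CPM in mouse 7, of which 1 cell gave 47 of 53 UMIs.

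The deposited CD4 subsets are a separate labelling from the types. The activated Treg cells with 8 or more listed genes, for example, have the type CD4+ Mem T and not CD4+ Treg. Within these subsets, activated Treg cells (1002 CPM of listed genes), Th17 (943) and Tfh cells (838) stood above early activated CD4 (574) and resting Treg cells (530). Of the 374 listed UMIs of Th17 cells, 59 came from the cell of mouse 97 whose Gzmb and Cd8a UMIs go against its label. The Th17 level without it was not computed, so no order of Th17 and Tfh cells was read. The single cell with 13 mitotic genes gave part of the value of activated Treg cells, which was 867 CPM without it. In activated Treg cells 6 mice ranged from 691 to 1945 CPM, of which the highest was mouse 7 with that cell and 1129 CPM without it, and in resting Treg cells 7 mice ranged from 416 to 607, without overlap. Mitotic genes gave 157 CPM in activated Treg cells, and 63.3 without that cell, against 24.3 in resting Treg cells. MCM genes gave 280 CPM in activated and 144 in resting Treg cells. Stmn1 was higher in activated than resting Treg cells by a ratio of 5.37 (4.24 without that cell), and Pcna was lower by a ratio of 0.852.

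The shares of cells with 5 or more listed genes were 7.69% of memory CD4 T cells (41 of 533), 4.56% of memory CD8 (16 of 351), 2.03% of B cells (46 of 2267), 1.98% of naive CD8 (38 of 1918), 29 of 1703 naive CD4 T cells and 1.52% of Treg cells (5 of 328). Treg here is the deposited type CD4+ Treg, and memory CD4 T cells include cells with an activated Treg subset label. NK cells had 9 of 54 (16.7%, interval 9.02% to 28.7%), gamma delta T cells 5 of 73 and Myeloid-labelled cells 2 of 73. Memory CD8 T cells were the deepest type with a median of 5102 UMIs per cell. Once cells were thinned to 1500 UMIs, 2.89% of memory CD8 and 3.94% of naive CD8 T cells had 3 or more listed genes, an order opposite to that of the unthinned shares, so no difference was read between them. The thinned values were 8.06% in memory CD4, 4.99% in naive CD4, 11.3% in NK, 2.90% in B, 2.86% in gamma delta T and 10.0% in Myeloid-labelled cells. All are shares of the cells with at least 1500 UMIs. The NK value is 6 of 53 cells, and the Myeloid value is 5 of 50, with 23 cells left out.

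Among subsets the shares were 10.5% of Th17 (11 of 105), 8.09% of Tfh (11 of 136), 7.74% of activated Treg (12 of 155), 4.79% of early activated CD4 (9 of 188) and 1.13% of resting Treg cells (3 of 266). After the same thinning, 3 or more listed genes were seen in 10.8% of Th17, 11.4% of Tfh and 11.4% of activated Treg cells. The thinned values were 1.67% in early activated CD4 and 2.42% in resting Treg cells, an order opposite to that of the unthinned shares. Median UMIs per cell were 3513.5 and 2585.5, and no difference was read between early activated CD4 and resting Treg cells. Of the Th17 cells, 7 of 25 in WT mice and 4 of 80 in Aire-DTR mice passed the threshold before thinning. By mouse these were 3 of 10 (mouse 1), 2 of 6 (mouse 6) and 2 of 9 (mouse 97) in WT, and 0 of 27 (mouse 4), 0 of 18 (mouse 7), 2 of 8 (mouse 8) and 2 of 27 (mouse 36) in Aire-DTR mice. The ranges overlap through mouse 8, and the contrast was chosen after its values were seen. The cells of mouse 97 that passed include the cell whose Gzmb and Cd8a UMIs go against its label.

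Single genes departed from the common pattern. Stmn1 was at 52.2 CPM in naive CD4 T cells (7 mice from 40.3 to 62.9) and at 9.22 in naive CD8 T cells (3.07 to 12.9), with no overlap. It was the gene with the lowest ratio of memory to naive CD4 T cells (0.760). Hmgb2 was highest in Th17 (343 CPM), Myeloid-labelled (319) and NK cells (303), and lowest in early activated CD4 (70.6) and naive CD8 T cells (79.2). The Th17 value includes the cell whose Gzmb and Cd8a UMIs go against its label. Mcm6 reached 129 CPM in activated Treg and 103 in NK cells and was at 33.7 in resting Treg cells. Rrm1 was at 46.6 CPM in NK, 43.5 in Tfh and 10.8 in resting Treg cells. These CPM are sums over cells and do not by themselves separate the share of cells with a gene from its level per cell.

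Next, the genotypes were compared. In brLN the share of cells with 5 or more listed genes was 3.19%, 2.36%, 2.41% and 2.57% in Aire-DTR mice 4, 7, 8 and 36, and 2.68%, 3.54% and 2.72% in WT mice 1, 6 and 97. The means were 2.63% ± 0.38 (SD, n = 4) and 2.98% ± 0.49 (SD, n = 3), and the groups overlapped. Within pools, the Aire-DTR mouse lay below the WT mouse in pool 1 (mice 8 and 6) and pool 2 (36 and 97), and in pool LN mouse 4 lay above and mouse 7 below mouse 1. The difference of -0.35 percentage points was smaller than the larger SD.

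In udLN the shares were 1.97%, 2.42%, 2.56% and 2.88% in Aire-DTR mice 4, 7, 8 and 36, and 2.19%, 1.97% and 8.33% in WT mice 1, 6 and 97. Mouse 97 had 4 such cells of 48 (95% Wilson interval 3.29% to 19.6%, counting error only). The means were 2.46% ± 0.38 (SD, n = 4) and 4.17% ± 3.61 (SD, n = 3), and without mouse 97 the difference of -1.71 percentage points turned to 0.37. No difference between genotypes larger than the spread between mice was seen in either node. No p is given for these shares, because they are a score over chosen genes.

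**Figure D4:**
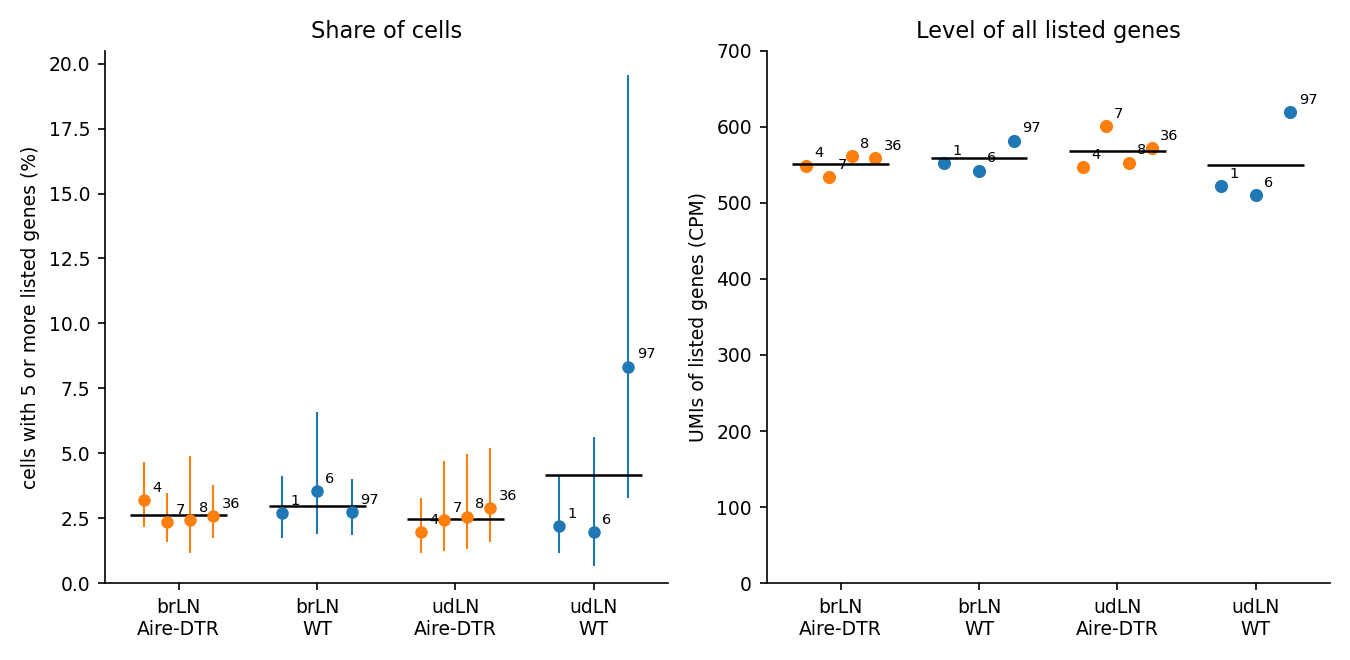
Left, share of cells with UMIs of 5 or more listed genes in each of 14 samples, with 95% Wilson intervals. Right, level of all listed genes in CPM. Points are mice, labelled by number, and black lines are group means. The udLN of WT mouse 97, with 48 cells, is the 1 point at 8.33%, and all other shares lie between 1.97% and 3.54%.

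The summed level was even more alike. All listed genes gave 551 ± 12.3 CPM in Aire-DTR and 559 ± 20.5 CPM in WT brLN (SD, n = 4 and 3), and 568 ± 24.1 and 550 ± 59.7 CPM in udLN. The share of cells with a UMI of a mitotic gene was 6.80% ± 1.37 and 6.92% ± 1.34 in brLN, and 7.57% ± 1.84 and 5.74% ± 3.31 in udLN. This share moved with the pool in brLN, from 5.50% to 5.87% in the 3 mice of pool LN and from 7.09% to 8.54% in the 4 mice of pools 1 and 2. Median depth was 2805 to 2967 UMIs in the former and 2917 to 3215.5 in the latter, and the part of pool or depth in the mitotic share was not tested.

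Single listed genes were then tested between genotypes with edgeR's quasi-likelihood test on UMIs summed per mouse and node. Sums of at least 20 cells entered, so udLN tests of CD4 and CD8 T cells had 4 and 2 mice, since mouse 97 had too few cells. Only 9 to 11 of the 37 listed genes had enough UMIs to be tested, and Mki67 and Top2a did not. At an adjusted p below 0.05, 0 of 11 listed genes passed in CD4 T cells of brLN and 0 of 11 in udLN, where 0% and 0.0154% of all genes passed. In CD8 T cells it was 0 of 10 in both nodes, with 0.0851% of all genes called in brLN and 0.017% in udLN. In B cells it was 0 of 9 in both nodes, with 0% of all genes called in each.

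In CD4 T cells of brLN the 3 listed genes with the smallest p were Mcm2, Rrm1 and Hmgb2. Mcm2 gave 18.1 ± 3.92 CPM in Aire-DTR and 25.5 ± 4.96 in WT mice (SD, n = 4 and 3), so the log2 values differed by -0.51 (SE 0.32), with an edgeR adjusted p of 0.991. Without mouse 36 it was -0.13, and without mouse 1 it was -0.83. Pcna was at 60.0 ± 14.0 CPM in Aire-DTR and 61.2 ± 4.05 in WT mice. Its fitted log2 difference of 0.06 (SE 0.18) has the opposite sign to the difference of these means and turned to -0.12 without mouse 36 and -0.13 without mouse 97, so no direction was read. The log2 differences were 0.48 for Rrm1, -0.16 for Hmgb2, -0.24 for Stmn1 and -0.01 for Mcm3, with SEs of 0.37, 0.13, 0.20 and 0.26. Of the 11 genes 4 were higher and 7 lower in Aire-DTR mice, with a median of -0.09, where the median of all genes tested was 0.00.

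Stmn1 was the lowest listed gene in CD4 T cells of udLN. It gave 32.9, 53.2, 35.4 and 42.7 CPM in Aire-DTR mice 4, 7, 8 and 36, and 60.7 and 44.0 CPM in WT mice 1 and 6, so the groups overlapped. The log2 values differed by -0.53 (SE 0.30), with an edgeR adjusted p of 0.943, and by -0.19 without mouse 1. Hmgb2 in the same cells was at 161, 210, 149 and 160 CPM in Aire-DTR mice and at 132 and 126 CPM in WT mice, without overlap, but its difference of 0.34 (SE 0.19) did not pass either (edgeR adjusted p = 0.943). It was 0.15 without mouse 1. The single cell with 13 mitotic genes gave 17 of the 71 Hmgb2 UMIs of mouse 7, whose levels without it were 163 CPM of Hmgb2 and 42.2 CPM of Stmn1. Pcna was at -0.23 (SE 0.27) and Mcm3 at -0.03 (SE 0.46), and the 11 genes had a median of 0.02.

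In CD8 T cells of udLN, Pcna was the listed gene with the smallest p of the 6 genotype comparisons. Its level was 53.1, 43.5, 57.0 and 56.8 CPM in Aire-DTR mice 4, 7, 8 and 36, and 32.9 and 23.5 CPM in WT mice 1 and 6. The groups did not overlap, and the log2 difference was 0.75 (SE 0.35, unadjusted p = 0.0366, edgeR adjusted p = 0.931). The value of mouse 97, which has 16 such cells and was left out, was 66.9 CPM. The next smallest p were those of Nasp (0.44, SE 0.32) and Mcm2 (0.52, SE 0.62), with Hmgb2 at 0.18 (SE 0.24) and Mcm3 at 0.07 (SE 0.45). In brLN CD8 T cells Pcna was at 0.17 (SE 0.17), Mcm6 at 0.20 (SE 0.18), Hmgb2 at 0.06 (SE 0.15), Mcm3 at -0.31 (SE 0.24) and Mcm5 at -0.36 (SE 0.30). Of 10 listed genes 8 were higher in Aire-DTR udLN, with a median of 0.20 against 0.00 over all genes, and 1 had an unadjusted p below 0.05, where 5.16% of all genes did.

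B cells gave differences of either sign. Dut was at 62.3, 52.7, 63.7 and 68.1 CPM in brLN of Aire-DTR mice 4, 7, 8 and 36, and at 51.3, 36.4 and 41.2 CPM in WT mice 1, 6 and 97. The groups did not overlap, but the log2 difference of 0.49 (SE 0.24) did not pass (edgeR adjusted p = 1.00) and was 0.28 without mouse 97. In udLN the Dut difference was -0.64 (SE 0.34) with overlapping groups. Rrm1 was at -0.59 in brLN and -0.82 in udLN (SE 0.35 and 0.52), and Mcm4 at -0.61 in brLN (SE 0.39). Mcm7 had the smallest p in udLN at 0.94 (SE 0.45, edgeR adjusted p = 0.958), which was 0.41 without mouse 6 and 1.54 without mouse 1. Pcna, Mcm3 and Hmgb2 were at 0.24, -0.43 and -0.18 in brLN and at -0.11, -0.41 and 0.03 in udLN. The medians over 9 listed genes were -0.12 in brLN and -0.06 in udLN. These comparisons of the B class include the 28 cells with Cd3 and no Cd79 UMIs, 18 of them from Aire-DTR and 10 from WT mice.

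Nodes of the same mouse were compared next, with the mouse as a block. No listed gene passed in CD4 T cells (0 of 9, with 0.425% of all genes called), in CD8 T cells (0 of 8, 0.216%) or in B cells (0 of 6, 0.0479%). The log2 difference of Hmgb2 in CD4 T cells, udLN less brLN, was 0.25 (SE 0.11, unadjusted p = 0.0371, edgeR adjusted p = 0.550), where 8.44% of all genes had an unadjusted p below 0.05. Without mouse 7, whose udLN held the single cell with 17 Hmgb2 UMIs, it was 0.12. Mcm6 was at -0.36 in CD8 T cells (SE 0.18, unadjusted p = 0.0458, edgeR adjusted p = 0.868), beside 5.69% of all genes. Mcm3 was at -0.39 in CD4 and -0.33 in CD8 T cells (SE 0.23 and 0.24), Dut at 0.19 (SE 0.15) and Stmn1 at 0.02 (SE 0.18) in CD4 T cells. Pcna was at -0.05 in CD4 and -0.28 in CD8 T cells (SE 0.15 and 0.17). In B cells Nasp was at -0.19, Mcm7 at -0.26, Hmgb2 at -0.13 and Pcna at -0.06 (SE 0.18, 0.25, 0.16 and 0.18).

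Over these 9 comparisons of genotypes or nodes, edgeR was run on 83 tests of listed genes, of which 0 passed and 3 had an unadjusted p below 0.05. Of all genes, the share with an unadjusted p below 0.05 was 3.33% in B brLN, 5.22% in B udLN, 4.76% in CD4 brLN, 5.19% in CD4 udLN and 4.88% in CD8 brLN for genotypes, and 4.91% in B cells between nodes. DESeq2 called 0 and had 0 with an unadjusted p below 0.05. The share of cells with 5 or more listed genes in udLN less that in brLN of the same mouse was -0.49 and -1.57 percentage points in WT mice 1 and 6 and 5.61 in mouse 97, and -1.22, 0.06, 0.14 and 0.31 in Aire-DTR mice 4, 7, 8 and 36.

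Lastly, the cells with 5 or more listed genes were compared with the other cells of the same mouse and lineage over genes outside the list, which the rule did not use. UMIs were summed in 16 pairs (7 of CD4, 5 of CD8 T and 4 of B cells) with at least 5 and 20 cells, 159 against 5912 cells in all. The pairs came from 7 mice, and pairs of the same mouse were treated as independent, so counts of pairs below are not counts of mice. Of 3422 genes outside the list, edgeR called 74 (2.16%), 23 higher (0.672%) and 51 lower (1.49%), and 15.5% had an unadjusted p below 0.05. The p-values were adjusted over all 3432 genes tested, which include 10 listed genes that are higher by construction. This loosens the threshold for the other genes, here and in the matched fit below, so calls close to 0.05 are uncertain. Without mouse 36 the number of genes called outside the list was 17, and without mice 1, 97 and 4 it was 30, 32 and 33. Cell type and depth moved with the groups. Memory cells made up 54.7% of the CD4 T cells with 5 or more listed genes and 19.8% of the others, Cd3-bearing cells without Cd79 made up 27.8% and 0.745% of B-labelled cells, and median UMIs were 4481 and 2924.5. The comparison was therefore repeated with 477 other cells matched on mouse, node, cell type and UMIs (median 4309). Cell type was the deposited label, so this match did not balance the Cd3-bearing cells without Cd79 among B-labelled cells. Of the 74 genes 29 passed there, and 48 genes outside the list passed in all. Both fits use the same 159 cells, so the second is not an independent test of the first.

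The 10 listed genes with enough UMIs were higher by construction, from 1.00 for Pcna to 2.19 for Mcm3 on the log2 scale, and are given with no test. Mcm3 averaged 118 CPM over the pairs in cells with 5 or more listed genes and 24.9 CPM in the others, Stmn1 128 and 24.7, Hmgb2 293 and 99.2, and Pcna 119 and 56.4.

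No gene outside the list had the same sign in all 16 pairs, so the rule for naming genes by size named none, and the genes below were chosen after their values were seen. Odc1, the first enzyme of polyamine synthesis, averaged 145 CPM in cells with 5 or more listed genes and 48.4 in the others, and was higher in 12 of 16 pairs. Its log2 difference was 1.44 (SE 0.26, edgeR adjusted p = 0.00099) and 1.01 against matched cells (adjusted p = 0.0046), and it passed in all 14 alternatives that gave an adjusted p. The glycolytic enzymes Pgam1 (0.89, 13 of 16 pairs), Ldha (0.51, 11 of 16) and Gapdh (0.43, 13 of 16) were higher too, as were the mitochondrial chaperone Hspd1 (0.72) and the splicing gene Snrpd1 (0.63). Ldha, Hspd1 and Snrpd1 passed in only 7, 6 and 7 of 15 alternatives. Against matched cells none of these 5 genes passed, with log2 differences from 0.17 (Gapdh, adjusted p = 0.623) to 0.65 (Pgam1, adjusted p = 0.186).

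In the unmatched comparison Nkg7, a cytotoxic granule gene, was higher by 1.80 (SE 0.37, 12 of 16 pairs), Cxcr3, a chemokine receptor of effector T cells, by 1.47 (SE 0.34, 13 of 16) and Tnfrsf9, the costimulatory receptor 4-1BB, by 1.86 (SE 0.52, 10 of 16), which passed in 6 of 14 alternatives. Lgals1 was higher by 1.16 (SE 0.22, 14 of 16). Against others matched on cell type and UMIs these were 0.72, 0.59, 0.94 and 0.52, and none passed (adjusted p = 0.074, 0.586, 0.330 and 0.213).

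Btg1, an antiproliferative gene of resting lymphocytes, averaged 621 CPM in cells with 5 or more listed genes and 913 in the others and was lower in 13 of 16 pairs (log2 difference -0.67, SE 0.13, edgeR adjusted p = 0.0025). It stayed lower against matched cells (-0.57, adjusted p = 0.00074) and passed in all 15 alternatives run. Igfbp4, a gene of naive T cells, was at -0.88 (14 of 16 pairs) and -0.69 when matched. Klf2, which keeps T cells in a naive circulating state, was at -0.46 and passed in 8 of 15 alternatives. When matched it was at -0.14 with no call (adjusted p = 0.820). Cd72, an inhibitory B cell receptor, was at -1.20 and -1.15, and Cd55, a complement inhibitor, at -1.59 and -0.97, of which the last did not pass. B-labelled cells with Cd3 and no Cd79 UMIs were not balanced by the match, and their part in the Cd72 difference was not tested.

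Ribosomal protein genes were counted as a group that was chosen after its values were seen. Of 84 tested 69 were lower and 21 passed, all of them lower, with a median log2 difference of -0.15, against -0.04 over all genes tested. The haemoglobin gene Hbb-bs, a gene of red blood cells, had a log2 difference of -1.42 (SE 0.19, 14 of 16 pairs), and -1.19 against matched cells. Its sequence is close to that of other beta globin genes, which leaves its count uncertain. Summed erythroid markers ranged from 5.06 to 4705 CPM between mice in the 191 cells and from 6.88 to 5663 CPM in the others, and their part in this difference was not tested.

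**Figure D5:**
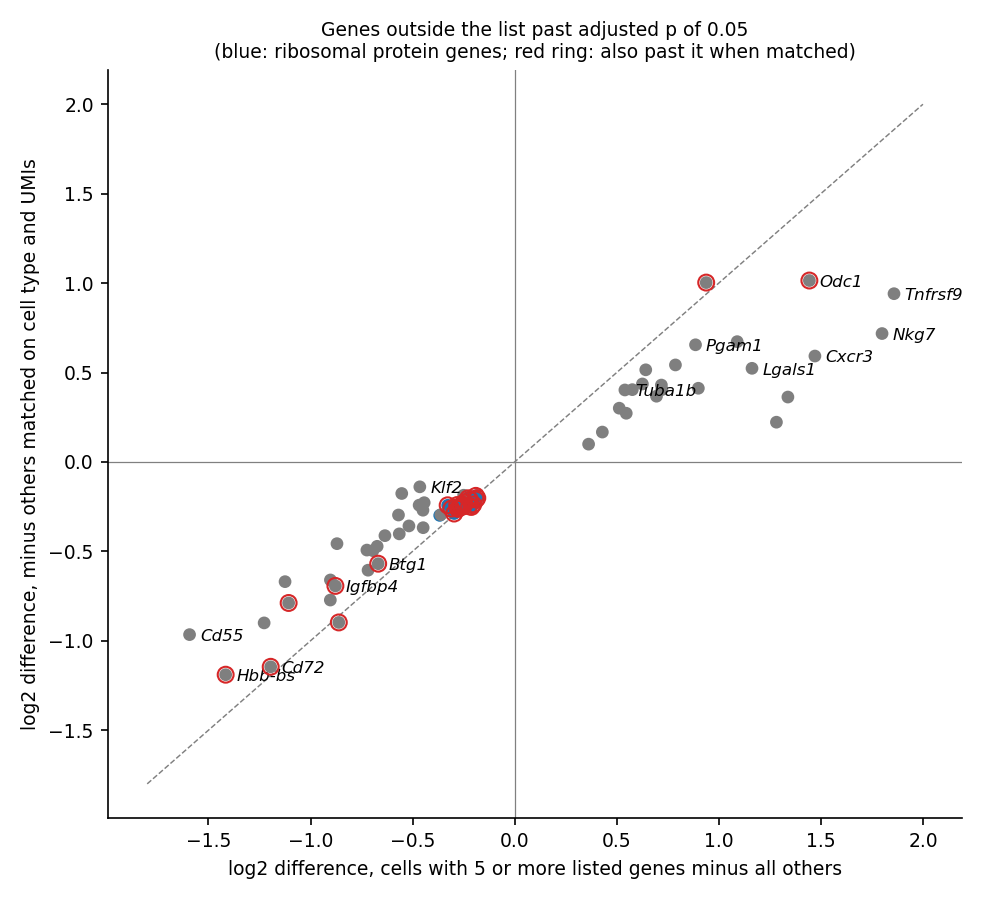
Log2 difference of the 74 genes outside the list that passed between cells with 5 or more listed genes and all other cells of the same mouse and lineage (horizontal), against the same difference with others matched on mouse, node, cell type and UMIs (vertical). Both axes use the same 159 cells, and the 29 points with a red ring also passed when matched. Nkg7 (1.80 and 0.72) and Cxcr3 (1.47 and 0.59) lie far below the dashed line of equality.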

How the data were processed

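Single cells were measured with the 10x 3′ kit in 6 wells of 3 pools. The deposited matrix holds UMI counts per cell and gene. The submitters' processing notes name GRCm38 and the tools Seurat, Scanpy 1.7.0, kallisto 0.46.1 and bustools 0.40.0, without their roles. The sources used here do not give the filters on cells, the treatment of doublets or the naming of types. The mouse, node, genotype, cell type and CD4 subset of each cell (850 cells with a subset) are the authors' deposited labels. No doublets were removed, and 14.1% of the 191 and 8.88% of the other cells had UMIs of B and T cell genes. A pair of matrices of scaled values with negative entries was not used. One marker gene is not reported here.

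The members, lists and tests were chosen with earlier results of these data known. Cells deposited as identical pairs were counted once. Counts were summed per mouse, node and class (CD4 T with naive, memory and Treg cells, CD8 T with naive and memory cells, and B), with at least 20 cells a sum. The sums were filtered with filterByExpr, scaled by TMM and tested over all genes with edgeR 4.0.16 (quasi-likelihood, Benjamini-Hochberg, adjusted p below 0.05). Genotype fits held both nodes with pool as a term and treated the nodes of 1 mouse as independent. Node fits used the mouse, and fits of cells with 5 or more listed genes the pair of mouse and lineage, as a block, since these samples come from the same animal. In the latter fits, pairs of different lineages from 1 mouse were treated as independent. SEs were taken as the size of the log2 difference divided by the root of F. DESeq2 1.42.0 was an alternative. CPM are the UMIs of a gene per 1000000 UMIs of the same cells. Intervals are 95% Wilson intervals and cover counting error only.

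In genotype and node comparisons the genes past the threshold, or else the 3 smallest p, were named, with Mki67, Top2a, Pcna, Mcm3, Stmn1 and Hmgb2 where tested. In the comparison of cells with 5 or more listed genes, the 8 genes outside the list with the largest change each way among those of 1 sign in every pair were to be named, and past members of a list of 73 other cell cycle genes. Over cells, the highest and lowest r of any gene with the number of listed genes were 0.158 and -0.172, both smaller in size than the 0.386 of log10 UMIs per cell, so no such gene is named. The scripts were tested on simulated data. Alternatives changed scaling, test, filter, pool term, block, threshold, depth, mice and the handling of repeated cells.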

Additional observations from a re-analysis of the deposited data

Results flagged for a closer look

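In 48 groups of 4 Aire-DTR mice, the highest and lowest mouse were compared with the others of its group, and 2 groups held a mouse far from the rest, where chance alone marks about 1 group in 20. In CD4 T cells of udLN, mitotic genes gave 168 CPM in mouse 7, and the next mouse had 42.5 CPM. One cell, the Act. Treg cell with 13 mitotic genes, held 47 of the 57 mitotic UMIs of mouse 7, and without it the value was 30.2 CPM. In CD4 T cells of brLN, Stmn1 gave 53.8 CPM in mouse 8, while the next mouse had 41.6 CPM. WT mice 1, 6 and 97 gave 44.5, 42.6 and 58.8 CPM in the same cells, so mouse 8 lay within the WT range.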

How the results depend on the processing

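All 45 alternative values of the differences in share moved by less than the spread between mice. That spread was 0.49, 3.61 and 2.40 percentage points in brLN, udLN and between nodes, larger than each difference itself. A difference that vanished or turned its sign could therefore pass this check, so it does not show that the differences are stable. Leaving out each mouse gave -0.53 to -0.07 percentage points in brLN, -2.81 to 0.37 in udLN and -0.46 to 0.73 between nodes. The count of listed genes called stayed at 0 in all 123 fits of genotypes or nodes, leave-one-out fits included. Counts over all genes were small and moved. With no low-count filter they were 1070 (cells with 5 or more listed genes against others), 43, 56, 13, 5, 14 and 2 (genotypes in B brLN, B udLN, CD4 brLN, CD4 udLN, CD8 brLN and CD8 udLN), and 45 and 112 (nodes, B and CD4). DESeq2 gave 3 in B udLN, 0 in CD4 udLN, CD8 brLN and CD8 udLN, and 1, 2 and 2 between nodes in B, CD4 and CD8. Without the pool term CD4 udLN, CD8 brLN and CD8 udLN gave 0. Each node fitted alone gave 4 in B brLN, 1 in CD4 brLN, 7 in CD4 udLN and 2 in CD8 udLN. Cells as deposited, an alternative chosen after seeing the data, gave 1 and 2 in CD4 brLN and udLN, 3 and 2 in CD8 brLN and udLN, and 1 between nodes in B. For cells with 5 or more listed genes, 1 pair per mouse gave 440 and matching the others, also added after seeing the data, 48. The fit of 1 pair per mouse pooled all cell types of a mouse, NK, gamma delta T and Myeloid-labelled cells included. Memory CD4 T cells made up 21.5% of the cells with 5 or more listed genes and 7.30% of all cells. The cause of these moves was not tested. Leaving out each mouse gave 17 to 57 for that comparison, 0 to 1 and 0 to 4 in B brLN and udLN, 0 to 6 and 0 to 2 in CD4, 0 to 10 and 1 to 5 in CD8, and 1 to 5, 8 to 24 and 6 to 11 between nodes in B, CD4 and CD8.

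The pairing by mouse was a block in the comparisons within mice. With no replicate block, 0, 20 and 8 genes were called between nodes in B, CD4 and CD8, where the block gave 2, 22 and 10. In the comparison of cells with 5 or more listed genes, 219 genes were called with no replicate block and 74 with it. Between nodes no listed gene was called with or without the block.

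Leaving out the 1 cell with 13 mitotic genes was added after seeing the data. Directions of uncalled genes turned in a few fits. Pcna in CD4 brLN was -0.0037 by DESeq2, Mcm3 was 0.00033 in CD4 brLN with cells as deposited and 0.15 in CD4 udLN without the pool term, and Stmn1 between nodes in CD4 was -0.019 without the filter and -0.0077 with no replicate block. Leaving out mice gave ranges that cross 0 for Hmgb2 in B udLN (-0.16 to 0.26), CD8 brLN (-0.016 to 0.13) and CD8 udLN (-0.18 to 0.34), Pcna in CD4 brLN (-0.13 to 0.18), CD4 udLN (-0.29 to 0.019) and between nodes in B (-0.13 to 0.050), Mcm3 in CD4 brLN (-0.33 to 0.45), CD4 udLN (-0.16 to 0.29) and CD8 udLN (-0.44 to 7.50, the latter against 1 WT mouse with 0 UMIs), and Stmn1 between nodes in CD4 (-0.091 to 0.12). A comparison of 8 or more listed genes with 2 or fewer had no pair with enough cells and was not run.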

Other observations

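Of 73 other cell cycle genes, 71 were in the matrix and 23 had enough UMIs in the comparison of cells with 5 or more listed genes. Of these 17 were higher and 6 lower, with a median log2 difference of 0.17, where 43.4% of all genes tested were higher and their median was -0.04. Tuba1b, an alpha tubulin, was the 1 gene that passed. It averaged 457 CPM in cells with 5 or more listed genes and 304 in the others and was higher in 11 of 16 pairs, with log2 values that differed by 0.54 (SE 0.15) and an edgeR adjusted p of 0.0445. Against matched cells it was 0.40 with an adjusted p of 0.127, and it passed in 7 of 15 alternatives, in which the adjusted p ran from 3.67e-06 to 0.432. The adjustment included the listed genes, which are higher by construction, so the call of Tuba1b near the threshold is uncertain. Nuclear genes of growing cells, chosen here after their values were seen, gave 0.47 (Ran, the nuclear transport GTPase), 0.44 (Ncl, nucleolin), 0.64 (Lmnb1, lamin B1) and 0.36 (H2afz, histone H2A.Z) and did not pass. In the 9 comparisons of genotypes or nodes 26 to 33 of these genes were tested and 0 passed in edgeR, with 0 to 6 at an unadjusted p below 0.05 in each.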
